A study of Mus musculus with 32 samples.

Results

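The genes described here are a fixed set of 10, the inflammatory cytokine genes Il1a, Il1b, Tnf, Il6, Il10 and Osm, the receptor antagonist gene Il1rn, and the NF-kB feedback genes Nfkbia, Nfkbiz and Tnfaip3. They were chosen by name from the 74021 genes of the LAG-3-sorted and spinal cord tables and the 74016 genes of the stage table. RNA-seq counts were available from 32 libraries in 3 experiments. In the first, CD11b+/CD45int microglia were sorted from lumbar spinal cord of SOD1G93A mice at P140 (postnatal day 140) into LAG-3-low and LAG-3-high cells, with 5 libraries each, beside 4 libraries of microglia from non-transgenic WT littermates. The age of the WT mice is not given in the sources used here. In the second, microglia came from littermates, SOD1G93A/LAG-3+/+ or SOD1G93A/LAG-3-/-, at P120 and P140, with 3 libraries in each of 4 groups. In the third, RNA came from whole lumbar cord of both genotypes at P140, with 3 libraries each. The SOD1G93A transgene carries a mutant human SOD1 gene and models amyotrophic lateral sclerosis. The Lag3 allele (Lag3tm1Doi) is a germline disruption, so it was present in every cell type of the LAG-3-/- mice and not in microglia alone. Every mouse of the stage and cord experiments carried the SOD1G93A transgene. LAG-3 is an inhibitory receptor known best from T cells.

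NF-kB is a family of transcription factors held in the cytoplasm by inhibitor proteins. Signals from IL-1 receptors, TNF receptors and Toll-like receptors activate a kinase complex that marks the inhibitors for degradation, and NF-kB then enters the nucleus and switches on cytokine genes. The same step switches on genes that end the response, which makes their transcripts a readout of recent NF-kB activity. Microglia, the macrophages of the central nervous system, are a main source of IL-1, TNF and IL-1 receptor antagonist in the diseased spinal cord, and they also start such a response when they are dissociated from tissue.

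The upstream sequences of 4 of the genes are shown because NF-kB acts through short kB elements near gene starts: Il6, Nfkbia and Tnfaip3 are the members with a match, and Tnf is set beside them as a cytokine gene without one. Each run is the 250 bases before a gene start in RefSeq (GRCm38.p6), 5′ to 3′ on the strand of the gene, and the capitals mark matches to the 10-base kB consensus on either strand, overlapping matches included. Of the 10 genes, 7 had an entry in the table of starts, with 10 starts between them. The names of the others are Il10, Osm and Nfkbiz.
Il6, chr5:30012864-30013113, plus strand: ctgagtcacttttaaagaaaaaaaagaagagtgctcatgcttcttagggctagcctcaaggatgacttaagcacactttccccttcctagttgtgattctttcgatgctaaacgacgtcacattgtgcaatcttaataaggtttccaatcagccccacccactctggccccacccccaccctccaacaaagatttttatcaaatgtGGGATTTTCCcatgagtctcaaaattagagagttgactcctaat
Nfkbia, chr12:55492648-55492897, minus strand: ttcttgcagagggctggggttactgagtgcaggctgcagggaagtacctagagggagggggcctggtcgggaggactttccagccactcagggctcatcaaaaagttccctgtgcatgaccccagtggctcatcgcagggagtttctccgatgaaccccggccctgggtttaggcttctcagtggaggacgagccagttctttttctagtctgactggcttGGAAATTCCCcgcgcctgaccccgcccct
Tnfaip3, chr10:19015411-19015660, minus strand: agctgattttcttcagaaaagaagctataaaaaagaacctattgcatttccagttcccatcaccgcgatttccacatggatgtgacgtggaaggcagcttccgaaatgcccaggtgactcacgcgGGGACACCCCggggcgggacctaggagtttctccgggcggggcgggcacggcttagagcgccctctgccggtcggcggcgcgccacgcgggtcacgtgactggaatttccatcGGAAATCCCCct
Tnf, chr17:35202008-35202257, minus strand: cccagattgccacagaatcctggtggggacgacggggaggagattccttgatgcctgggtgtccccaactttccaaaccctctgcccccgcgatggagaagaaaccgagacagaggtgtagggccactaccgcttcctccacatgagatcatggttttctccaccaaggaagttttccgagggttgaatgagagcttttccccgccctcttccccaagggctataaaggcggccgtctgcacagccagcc

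The Il6 window held 1 match, GGGATTTTCC, from 44 to 35 bases before the start, and the Nfkbia window held 1, GGAAATTCCC, from 29 to 20 bases before it. The Tnfaip3 window shown held 2 matches, GGGACACCCC and GGAAATCCCC, the latter from 12 to 3 bases before the start. A second Tnfaip3 start and the windows of Tnf, Il1a, Il1b and Il1rn held no match within these 250 bases. Over all starts, 2382 of 32851 windows of the same length (7.25%) held a match. A match to the consensus is a description of letters and not a measured binding site.

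Libraries held between 9403475 (a WT library) and 49512632 (a P120 LAG-3+/+ library) estimated counts. Levels are CPM, a count relative to the TMM-scaled size of its library. Fold changes come from the quasi-likelihood F-test of edgeR, and each p was adjusted by the Benjamini-Hochberg method over every gene tested in the table. In the LAG-3-sorted and cord tables a call needed an adjusted p under 0.1 and a log2 change of more than 1 in size, and in the stage table an adjusted p under 0.1 with no minimum. Lag3 followed the labels of sort and genotype. It was at 34.8 to 57.8 CPM in LAG-3-low, 146 to 195 CPM in LAG-3-high and 0.508 to 9.99 CPM in WT microglia. In the stage table it was at 0.0239 to 0.462 CPM in LAG-3-/- against 24.5 to 62.9 CPM in LAG-3+/+ microglia. The LAG-3+/+ libraries held 53.4 to 62.9 CPM at P120 and 24.5 to 28.1 CPM at P140, without overlap. In cord Lag3 was at 5.50 to 5.72 CPM in LAG-3-/- and 43.4 to 74.5 CPM in LAG-3+/+ libraries. Of the 10 microglia markers listed, 9 were matched to a gene by name, and all 9 were detected in each microglia group. Their summed level was 32907 to 38200 CPM in WT, 16389 to 24661 CPM in LAG-3-low and 24063 to 26230 CPM in LAG-3-high libraries. The 12 neutrophil markers were also high in some sorts: their summed level was 6345 to 70631 CPM in WT and 23594 to 67795 CPM in LAG-3-low libraries, but 484 to 665 CPM in LAG-3-high libraries, where Lcn2, Retnlg, Mmp9 and Cd177 had 3 counts or fewer. In the stage table it ranged from 322 to 5174 CPM. At P120 it was 2264 to 3166 CPM in LAG-3+/+ and 511 to 633 CPM in LAG-3-/- libraries, without overlap. In the P120 LAG-3-/- libraries only 4 of the 12 markers had more than 3 counts in any library. S100a8, S100a9, Camp, Ngp, Lcn2, Retnlg, Mmp9 and Cd177 had 3 counts or fewer there. P140 LAG-3-/- replicate 1 stood apart, with 20260 genes detected against 23896 and 23459 in the other two, and WT replicate 4 had the fewest genes of all, 17031. In bulk RNA, fewer cells of a type and less RNA per cell cannot be told apart.

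Il10, which encodes an anti-inflammatory cytokine (ENSMUSG00000016529, chromosome 1, 130947581 to 130952711 of GRCm39), had 0 counts in all 26 microglia libraries. The limit that a count of 0 allows, 3 counts per library, lay between 0.0555 and 0.261 CPM. The cord libraries held 1 Il10 count in all, in a LAG-3-/- library. The other members passed the filter on low counts in both microglia tables, and Il6 did not pass it in cord, where each library held 1 or 2 counts. Divided by the length of the longest annotated transcript, Nfkbia was the most abundant member in each of the 9 groups, at a mean of 39.0 to 74.2 CPM per kilobase in microglia and 15.2 (LAG-3+/+) and 13.7 (LAG-3-/-) in cord. Il1a came second in all 6 groups of sorted SOD1G93A microglia except LAG-3-low, where Il1rn (21.9) and Il1a (19.9) did not differ beyond their spread. Il6 was the lowest of the 9 detected members per kilobase in the SOD1G93A microglia groups, between 0.191 and 3.06, except in P140 LAG-3+/+ microglia, where Tnfaip3 (2.93) and Il6 (3.06) were close.

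In the LAG-3-sorted microglia, the question was whether cells with much LAG-3 differed from those with little, and how both differed from WT cells. Between the LAG-3-high and the LAG-3-low sort, 0 of the 9 members tested were called by edgeR or DESeq2, where edgeR called 3.49% of all 16508 genes. At an unadjusted p under 0.05 the count was 0 of 9 (12% of all genes), and 0 of 9 had ranges that did not overlap (15.5% of all genes). Against WT microglia, 4 members were called in LAG-3-high cells (27.0% of all genes), 3 higher (12.1%) and 1 lower (14.9%), and 5 in LAG-3-low cells (21.9%), 4 higher (10.9%) and 1 lower (11%). An unadjusted p under 0.05 was reached by 6 members in each (35.7% of all genes for LAG-3-high, 31.6% for LAG-3-low). The ranges of 6 members did not overlap between LAG-3-high and WT (20.9% of all genes) and those of 4 between LAG-3-low and WT (15.7%). Il1b, Il1rn and Osm were higher in both sorts, and Il6 was lower in both.

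Il1b (ENSMUSG00000027398, chromosome 2, 129206490 to 129213059, minus strand) encodes IL-1β, made as a precursor that caspase-1 cuts. The WT libraries held 0, 4.36, 4.74 and 0 CPM. The LAG-3-low libraries held 26.3, 48.6, 30.6, 10.7 and 19.8 CPM, and the LAG-3-high libraries 23.3, 27.3, 44.5, 13.98 and 16.8 CPM. Each SOD1G93A library was above each WT library, and the sorts overlapped throughout. The log2 fold change against WT was 3.47 ± 1.21 (SE) for LAG-3-high (adjusted p = 0.0536, edgeR) and 3.58 ± 1.21 for LAG-3-low (adjusted p = 0.0562), and that between the sorts was -0.11 ± 0.99. The calls were lost without LAG-3-high replicate 3 (3.17, adjusted p = 0.104) and without LAG-3-low replicate 2 (3.26, adjusted p = 0.112), respectively.

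Il1rn (ENSMUSG00000026981, chromosome 2, 24226865 to 24241506, plus strand) encodes the IL-1 receptor antagonist, which occupies the IL-1 receptor without signalling. It was at 0.102, 5.32, 0 and 0 CPM in WT microglia. LAG-3-low libraries held 76.6, 97.8, 75.1, 23.4 and 7.02 CPM and LAG-3-high libraries 21.9, 22.5, 28.7, 36.9 and 21.4 CPM. All SOD1G93A libraries were above WT, and the LAG-3-low libraries spread more widely, with a mean of 56.0 ± 38.7 (SD, n = 5) against 26.3 ± 6.63 CPM (SD, n = 5). The log2 fold change was 4.32 ± 1.36 for LAG-3-high (adjusted p = 0.0361, edgeR) and 5.41 ± 1.43 for LAG-3-low (adjusted p = 0.0206) against WT, and -1.09 ± 1.07 between the sorts (adjusted p = 0.841). Osm (ENSMUSG00000058755, chromosome 11, 4186420 to 4191026, plus strand), the gene of oncostatin M, a cytokine of the IL-6 family, followed the same order. It was at 0.102, 5.23, 0 and 0.0634 CPM in WT, 45.9, 52.0, 33.0, 20.8 and 18.3 CPM in LAG-3-low and 12.1, 32.8, 18.7, 27.7 and 36.5 CPM in LAG-3-high microglia. Its log2 fold change against WT was 4.28 ± 1.25 in LAG-3-high (adjusted p = 0.0263, edgeR) and 4.69 ± 1.27 in LAG-3-low cells (adjusted p = 0.0232). WT replicate 2 alone held most of the WT signal of both genes. Without it, Il1rn stood at 9.25 and 10.3 and Osm at 8.68 and 9.09 on the log2 scale for LAG-3-high and LAG-3-low. The remaining WT libraries held at most 2 counts of either gene, so these sizes depend on values near the floor. The LAG-3-high call of Il1rn was lost with only the groups compared (4.26, adjusted p = 0.118, edgeR) and with no filter (4.40, adjusted p = 0.101).

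Neutrophils also transcribe Il1b, Il1rn and Osm, so their markers are given beside these genes. The summed neutrophil markers of WT replicates 1 to 4 were 6345, 37027, 9937 and 70631 CPM. The WT library with the highest sum, replicate 4, held 0 CPM of Il1b and of Il1rn and 0.0634 CPM of Osm, and the one with the next highest, replicate 2, held the most Il1rn (5.32 CPM) and Osm (5.23 CPM) of the WT libraries and 4.36 CPM of Il1b. LAG-3-low replicates 1 to 5 had sums of 29128, 52556, 67795, 50174 and 23594 CPM beside the values given above, with the most Il1b, Il1rn and Osm in replicate 2. The LAG-3-high libraries, at 484 to 665 CPM of neutrophil markers, held 13.98 to 44.5 CPM of Il1b. Immediate early genes, which rise during dissociation, summed to 148 to 603 CPM in WT, 504 to 956 CPM in LAG-3-low and 653 to 910 CPM in LAG-3-high libraries. Monocyte and border macrophage markers summed to 46.8 to 597 CPM in WT, 210 to 428 CPM in LAG-3-low and 83.5 to 154 CPM in LAG-3-high libraries. The part of neutrophils, of monocytes and border macrophages, and of immediate early genes in these differences was not tested.

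Il6 (ENSMUSG00000025746, chromosome 5, 30218112 to 30224979, plus strand) encodes a cytokine that signals through the receptor chains Il6ra and Il6st. It moved the other way. WT libraries held 1.84, 13.7, 16.8 and 111 CPM. LAG-3-low libraries held 0, 2.96, 0.041, 1.502 and 0.828 CPM, and LAG-3-high libraries 0, 0, 0, 0.852 and 1.41 CPM. No LAG-3-high library reached the lowest WT library, whereas LAG-3-low replicate 2 did. The log2 fold change was -6.31 ± 1.81 for LAG-3-high (adjusted p = 0.0246, edgeR) and -5.08 ± 1.70 for LAG-3-low (adjusted p = 0.0543). WT replicate 4 set much of this size. Without it the values were -4.56, still called (adjusted p = 0.0791), and -3.34, no longer called (adjusted p = 0.186). Leaving out LAG-3-low replicate 3 or 5 also ended the LAG-3-low call (adjusted p = 0.101 and 0.105).

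Tnf (ENSMUSG00000024401, chromosome 17, 35418357 to 35420983, minus strand) encodes tumour necrosis factor. Its levels were low in the sorted cells, at 4.79, 0.436, 0 and 0 CPM in WT, 18.2, 2.69, 1.64, 4.41 and 1.83 CPM in LAG-3-low and 12.7, 4.94, 2.83, 3.69 and 3.88 CPM in LAG-3-high libraries. The highest value of every group was that of replicate 1. Neither sort was called against WT (2.09 ± 1.38 and 2.12 ± 1.38 on the log2 scale, adjusted p = 0.302 and 0.315, edgeR). Without WT replicate 1, both were called, at 5.30 (adjusted p = 0.0286) and 5.41 (adjusted p = 0.0349). Il1a (ENSMUSG00000027399, chromosome 2, 129140291 to 129152098, minus strand) encodes IL-1α, which is active without maturation. By group mean it was the most abundant cytokine transcript in WT cells, at 148, 98.6, 123 and 68.2 CPM. In WT replicate 4, Il6 was higher (111 CPM). Il1a held 60.7, 56.9, 54.6, 69.6 and 99.04 CPM in LAG-3-low and 69.3, 90.8, 62.8, 63.4 and 74.8 CPM in LAG-3-high cells. The ranges overlapped, and the log2 fold changes of -0.60 ± 0.26 and -0.68 ± 0.26 against WT lay within the fold minimum (adjusted p = 0.110 and 0.0814, edgeR). With length and GC offsets they were called, at -1.05 (adjusted p = 0.00974) and -1.29 (adjusted p = 0.00308).

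Among the feedback genes, Nfkbiz (ENSMUSG00000035356, chromosome 16, 55631738 to 55659262, minus strand) encodes IκBζ, a nuclear cofactor that NF-kB needs for some of its secondary targets. It was at 27.1, 11.7, 1.64 and 18.7 CPM in WT, 44.3, 32.3, 49.9, 30.3 and 38.2 CPM in LAG-3-low and 32.4, 27.8, 28.01, 34.4 and 29.95 CPM in LAG-3-high microglia. Both sorts lay above WT, LAG-3-high by a narrow gap. The LAG-3-low difference was called (1.40 ± 0.54, adjusted p = 0.0898, edgeR) and the LAG-3-high difference was not (1.05 ± 0.54, adjusted p = 0.179). Of the 14 fits without 1 library, 11 lost the LAG-3-low call, and the direction turned with offsets for transcript length and GC (-0.01 for LAG-3-low and -0.34 for LAG-3-high). Tnfaip3 (ENSMUSG00000019850, chromosome 10, 18874201 to 18891405, minus strand) encodes A20, an enzyme that edits ubiquitin chains and shuts NF-kB signalling down. It was at 27.5, 66.1, 39.2 and 0.571 CPM in WT, 62.3, 95.5, 38.0, 74.4 and 96.9 CPM in LAG-3-low and 109, 118, 101, 86.6 and 76.3 CPM in LAG-3-high microglia. LAG-3-high libraries were all above WT, with a log2 fold change of 1.56 ± 0.73 that was not called (adjusted p = 0.140, edgeR). It was called without WT replicate 2 (2.14, adjusted p = 0.0608) and without WT replicate 4 (1.16, adjusted p = 0.0300). Nfkbia (ENSMUSG00000021025, chromosome 12, 55535332 to 55539432, minus strand) encodes IκBα, the inhibitor that carries NF-kB back out of the nucleus. It was at 79.9, 43.8, 115 and 143 CPM in WT, 62.0, 84.9, 96.5, 92.6 and 71.8 CPM in LAG-3-low and 73.0, 77.0, 52.8, 48.1 and 56.9 CPM in LAG-3-high microglia. The 3 ranges overlapped and no comparison of Nfkbia was called.

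**Figure D1:**
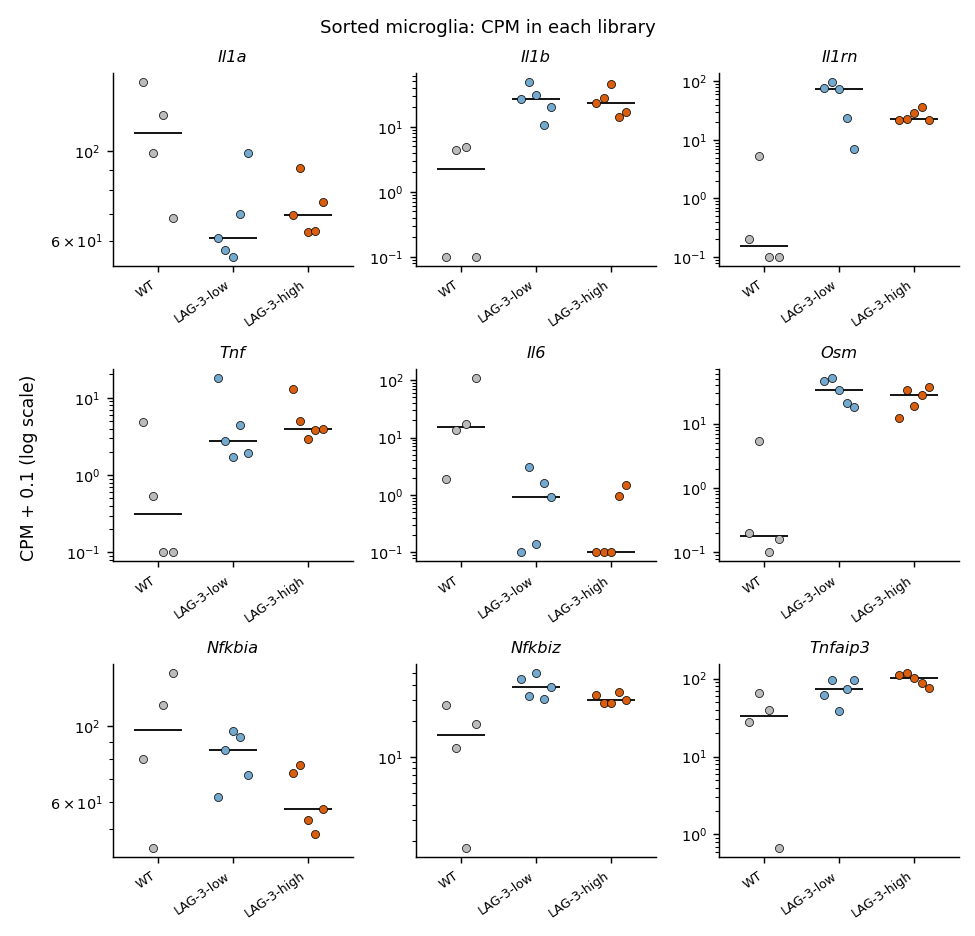
CPM plus 0.1 on a log scale (vertical axis) of 9 genes in WT (n = 4), LAG-3-low (n = 5) and LAG-3-high (n = 5) microglia, with 1 point per library in the order of its replicate number and a line at the group median. Il1b, Il1rn and Osm sit higher in both sorts than in WT, Il6 sits below WT in LAG-3-high, and both sorts overlap for every gene.

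A list of 53 receptors, kinases, subunits and other regulators of these pathways, of which 51 were tested, set the members in context. Between the sorts, 0 were called higher and 1 lower (3.49% of all genes in both directions). That gene, Il1r2, the decoy receptor that binds IL-1 without signalling, was at 18.9 to 53.3 CPM in LAG-3-low and at 0 CPM in all 5 LAG-3-high libraries. Against the floor of 3 counts per library, LAG-3-high cells held at least 188-fold less. Neutrophils carry much Il1r2, and the summed neutrophil markers differed between the sorts as given above. Against WT, the LAG-3-high sort had 8 calls upward and 5 downward among the 51, and the LAG-3-low sort 7 upward and 4 downward, with list medians of 0.51 and 0.44 on the log2 scale where all genes tested had -0.08 and 0.04. The members had medians of 1.56 and 1.40. Il1r1, the signalling IL-1 receptor, was above WT in LAG-3-high cells (20.4 ± 3.93 against 0.364 ± 0.432 CPM), as was the NF-kB subunit gene Relb (50.6 ± 12.02 against 10.7 ± 8.03 CPM). Nfkb1, the precursor of the p50 subunit, was below WT in LAG-3-high (63.4 ± 7.73 CPM, n = 5) and LAG-3-low (56.1 ± 15.4 CPM, n = 5) cells (WT 194 ± 60.9 CPM, n = 4). Tab2, an adaptor of the TAK1 kinase, was likewise lower in both. Tnip3, a partner of A20, was at 0.0773 ± 0.0211 CPM in WT, 5.81 ± 7.25 CPM in LAG-3-low and 3.89 ± 2.34 CPM in LAG-3-high cells. Zfp36, which destabilizes cytokine transcripts, and Stat3, the factor activated by IL-6 and oncostatin M, were called higher in LAG-3-low cells (1.58 and 1.03 on the log2 scale). Il6ra was lower in LAG-3-high cells (-1.39) and Il18 in LAG-3-low cells (-2.20).

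In microglia of SOD1G93A/LAG-3+/+ mice, the stage comparison asked what changed between P120 and P140. Of 9 members tested, 5 were called, at a background of 27.4% of all 18669 genes, 4 of them higher (11.9%) and 1 lower (15.5%). An unadjusted p under 0.05 was reached by 6 members (33.6% of all genes), and 5 had stages that did not overlap (42.2% of all genes). Tnf, Il1rn, Il1a and Nfkbia were higher at P140, and Tnfaip3 was lower. In LAG-3-/- microglia, 0 members were called between the stages, and 0 genes of the whole table were (0.0%). DESeq2 also called 0 of the members there, 0 had an unadjusted p under 0.05 (8.88% of all genes), and 0 had stages that did not overlap (14.8%).

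Tnf was at 9.09, 3.98 and 11.3 CPM in P120 LAG-3+/+ and at 36.5, 28.04 and 57.7 CPM in P140 LAG-3+/+ microglia. In LAG-3-/- microglia it was at 9.05, 20.1 and 3.64 CPM at P120 and 14.4, 11.3 and 19.0 CPM at P140. The 3 P140 LAG-3+/+ libraries were above all 9 others. The log2 fold change from P120 to P140 was 2.33 ± 0.61 in LAG-3+/+ (adjusted p = 0.0240, edgeR) and 0.45 ± 0.59 in LAG-3-/- microglia (adjusted p = 0.913). At P140 the difference of LAG-3-/- from LAG-3+/+ was -1.45 ± 0.60 (adjusted p = 0.170), with no overlap, and the interaction of genotype and stage was -1.88 ± 0.83 (adjusted p = 0.355), so that a different change in the genotypes was not shown. The Tnf call between the stages held in all 12 fits that left out 1 library (1.99 to 2.64) and with the length and GC correction (2.47).

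Il1rn was at 20.8, 12.7 and 29.7 CPM in P120 LAG-3+/+ and 96.1, 10.6 and 152 CPM in P140 LAG-3+/+ microglia. Replicate 2 of the P140 group lay below all P120 libraries, and the other 2 lay far above them. In LAG-3-/- microglia the levels were 35, 47.7 and 45.3 CPM at P120 and 39.9, 25.045 and 31.9 CPM at P140. The rise in LAG-3+/+ microglia was called (2.04 ± 0.69, adjusted p = 0.0612, edgeR). It was lost without P140 LAG-3+/+ replicate 3 (1.34, adjusted p = 0.229), without replicate 1 of that group (1.95, adjusted p = 0.109), and without any one of the 3 P120 LAG-3+/+ libraries (1.77 to 2.36, adjusted p = 0.1003 to 0.187). At P120 all LAG-3-/- libraries were above all LAG-3+/+ libraries (1.02 ± 0.67, adjusted p = 1). Neutrophil markers summed to 2264 to 3166 CPM in the P120 LAG-3+/+ and 511 to 633 CPM in the P120 LAG-3-/- libraries. In the latter, only 4 of the 12 markers had more than 3 counts in any library. In P140 LAG-3+/+ replicates 1 to 3 the 12 markers summed to 3878, 846 and 322 CPM, where Il1rn was at 96.1, 10.6 and 152 CPM. The part of neutrophils in these Il1rn values was not tested. The Il1rn interaction was -2.44 ± 0.95 (adjusted p = 0.306), and it was called without P140 LAG-3+/+ replicate 2 (-2.96, adjusted p = 0.0966).

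Il1a was at 116, 99.4 and 144 CPM in P120 LAG-3+/+, 211, 180 and 325 CPM in P140 LAG-3+/+, 163, 138 and 99.8 CPM in P120 LAG-3-/- and 258, 101 and 135 CPM in P140 LAG-3-/- microglia. The stages did not overlap in LAG-3+/+ microglia (0.99 ± 0.35, adjusted p = 0.0728, edgeR), and they did in LAG-3-/- microglia (0.30 ± 0.35, adjusted p = 0.902). The LAG-3+/+ call was lost without P140 LAG-3+/+ replicate 3 (0.70, adjusted p = 0.242) and without any of the 3 P120 LAG-3+/+ libraries (adjusted p = 0.111 to 0.210). Il1b did not separate any groups. It was at 10.7, 5.74 and 27.3 CPM in P120 LAG-3+/+, 3.28, 15.2 and 20.1 CPM in P140 LAG-3+/+, 3.05, 26.8 and 9.18 CPM in P120 LAG-3-/- and 18.0, 9.99 and 11.5 CPM in P140 LAG-3-/- microglia. Its log2 fold changes lay between -0.18 and 0.03 in the 4 pairwise comparisons, with SE of 0.84.

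Il6 was at 2.32, 2.39 and 9.83 CPM in P120 LAG-3+/+ and 4.40, 10.4 and 6.96 CPM in P140 LAG-3+/+ microglia. LAG-3-/- microglia held 1.44, 0.132 and 4.16 CPM at P120 and 0.631, 0.692 and 1.04 CPM at P140. All P140 LAG-3-/- libraries lay below all P140 LAG-3+/+ libraries, by -3.20 ± 1.08 on the log2 scale (adjusted p = 0.109, edgeR), which missed the threshold. DESeq2 called the difference (-3.30, adjusted p = 0.00696). Osm was at 42.8, 12.1 and 27.5 CPM in P120 LAG-3+/+, 49.4, 59.5 and 40.5 CPM in P140 LAG-3+/+, 23.65, 43.9 and 23.1 CPM in P120 LAG-3-/- and 28.3, 38.3 and 20.3 CPM in P140 LAG-3-/- microglia. At P140 its genotypes did not overlap, with a log2 fold change of -0.78 ± 0.45 (adjusted p = 0.309, edgeR).

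The feedback genes went in opposite directions between the stages. Nfkbia was at 63.7, 68.7 and 70.0 CPM in P120 LAG-3+/+ and 112, 143 and 96.1 CPM in P140 LAG-3+/+ microglia, without overlap (0.80 ± 0.31, adjusted p = 0.0922, edgeR). LAG-3-/- libraries held 119, 67.2 and 57.4 CPM at P120 and 132, 93.05 and 71.7 CPM at P140. Of the 12 fits without 1 library, 8 lost the Nfkbia call, and its log2 fold change ranged from 0.62 to 0.91. Tnfaip3 fell from 86.1, 97.9 and 84.6 CPM at P120 to 31.4, 10.5 and 19.3 CPM at P140 in LAG-3+/+ microglia (-2.13 ± 0.62, adjusted p = 0.0363, edgeR). The call was lost without P140 LAG-3+/+ replicate 2 (-1.82, adjusted p = 0.115) and without replicate 3 of that group (-2.09, adjusted p = 0.104). In LAG-3-/- microglia it was at 153, 118 and 64.4 CPM at P120 and 15.98, 88.8 and 117 CPM at P140. Nfkbiz had a like pattern without a call, with 36.1, 32.6 and 41.2 CPM in P120 LAG-3+/+ and 26.3, 8.70 and 16.9 CPM in P140 LAG-3+/+ microglia (-1.08 ± 0.48, adjusted p = 0.142, edgeR). Its LAG-3-/- libraries held 38.5, 57.2 and 31.7 CPM at P120 and 17.2, 30.6 and 59.5 CPM at P140. In both genes the lowest LAG-3-/- library was P140 replicate 1, the library with fewer genes detected.

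**Figure D2:**
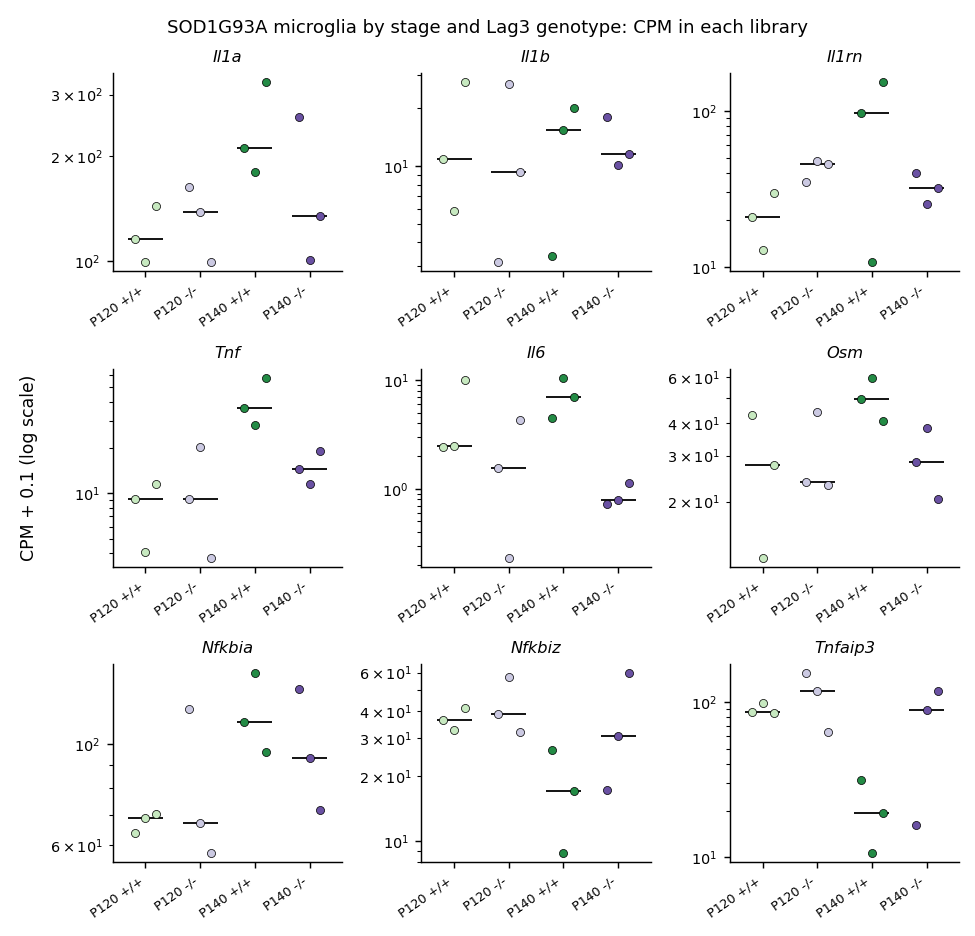
CPM plus 0.1 on a log scale (vertical axis) of 9 genes in SOD1G93A microglia of both Lag3 genotypes at P120 and P140 (n = 3 per group), with 1 point per library and a line at the group median. Tnf is highest in the 3 P140 LAG-3+/+ libraries (28.04 to 57.7 CPM), and Tnfaip3 is low in them (10.5 to 31.4 CPM) and in 1 of the P140 LAG-3-/- libraries (15.98 CPM).

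Transcript length moved with this comparison. From P120 to P140 in LAG-3+/+ microglia, the median log2 fold change of all genes tested was 0.12 for genes whose longest transcript is under 2000 bases, 0.18 for 2000 to 4000 bases and -0.76 for 4000 bases and over. The 2 members of 4000 bases or more are Nfkbiz (4115 bases) and Tnfaip3 (6967 bases), and the called rises were of Tnf (1639 bases), Nfkbia (1578 bases), Il1rn (2554 bases) and Il1a (3419 bases). With length and GC offsets in each library, Tnfaip3 went to -0.92 (adjusted p = 0.197) and Nfkbiz to -0.57, and Tnf (2.47), Il1rn (2.02), Il1a (1.23) and Nfkbia (0.99) remained called. Genes detected per library moved in parallel, at 24136 to 24942 in P120 and 18896 to 20489 in P140 LAG-3+/+ libraries. Without TMM scaling all log2 fold changes of this comparison shifted by -0.49, and Tnf and Tnfaip3 were 2 of the 3 members then called. Immediate early genes summed to 515 to 632 CPM at P120 and 773 to 991 CPM at P140. Monocyte and border macrophage markers summed to 10.1 to 19.9 CPM in P120 and 109 to 149 CPM in P140 LAG-3+/+ libraries, without overlap, and to 51.5 to 117 CPM in P140 LAG-3-/- libraries. The part of either list in the changes of Tnf, Il1rn, Il1a and Nfkbia, or in the lower Tnf of P140 LAG-3-/- libraries, was not tested.

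**Figure D3:**
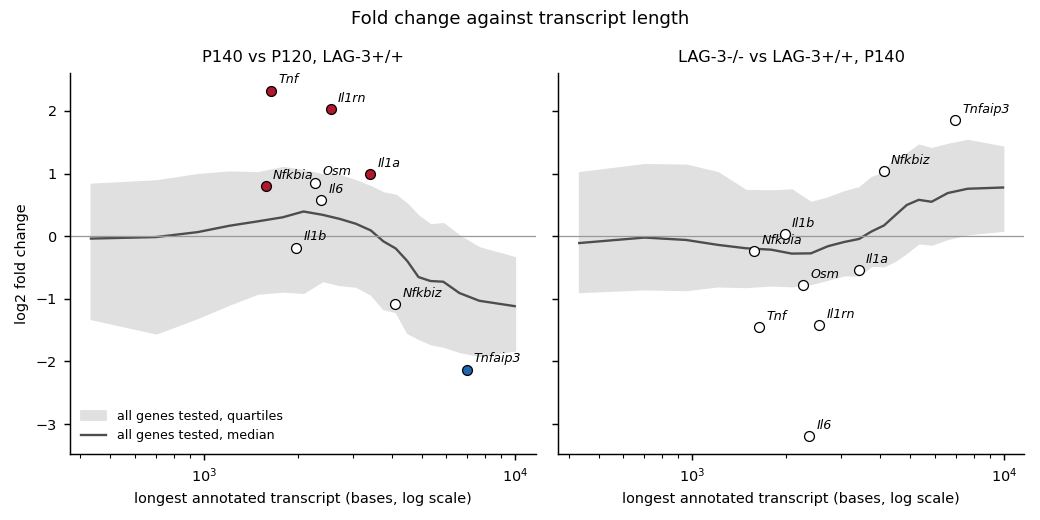
Log2 fold change (vertical axis) against the longest annotated transcript in bases (log axis) for the stage comparison in LAG-3+/+ microglia and for the genotype comparison at P140. The line and band are the median and quartiles of all genes tested in 20 length bins, points are the members, and filled points are called; Tnfaip3 lies among the longest genes, where the median of all genes is below 0 on the left and above 0 on the right, and Tnf lies above the band on the left and below it on the right.

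The genotype comparison asked what the loss of LAG-3 changed at each stage. At P120, 0 of 9 members were called (edgeR and DESeq2), 0 had an unadjusted p under 0.05 (2.95% of all genes), and 2 genes of the whole table were called (0.0107%). Only Il1rn had genotypes that did not overlap (11.5% of all genes). At P140, edgeR again called 0 members, at a background of 10.2%, and 3 had an unadjusted p under 0.05 (Tnfaip3, Il6 and Tnf, beside 24.1% of all genes). The genotypes did not overlap for 3 members, Il6, Tnf and Osm (21.1% of all genes). DESeq2 called Tnf and Il6 lower and Tnfaip3 higher in LAG-3-/- microglia. For Tnfaip3 the log2 fold change was 1.85 ± 0.62 (adjusted p = 0.106, edgeR). It was 0.80 (adjusted p = 0.327) with the length and GC correction. In this comparison the median of all genes of 4000 bases and over was 0.55, against -0.14 for those under 2000 bases.

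P140 LAG-3-/- replicate 1 decided several of these values. Its Tnfaip3 (15.98 CPM), Nfkbiz (17.2 CPM) and Il1a (258 CPM) lay within the P140 LAG-3+/+ ranges, and the other 2 LAG-3-/- libraries lay outside them. Without it, 3 members were called at P140: Tnfaip3 (2.33, adjusted p = 0.00766) and Nfkbiz (1.38, adjusted p = 0.0732) higher, and Il1a (-1.01, adjusted p = 0.0546) lower. Over the whole table, 4140 genes were called without this library and 1908 with it. Leaving out P140 LAG-3+/+ replicate 1 called Tnfaip3 (2.31, adjusted p = 0.0830), leaving out P140 LAG-3+/+ replicate 2 called Il1rn (-1.94, adjusted p = 0.0511), and leaving out P120 LAG-3-/- replicate 2 called Il6 (-3.19, adjusted p = 0.0756). The interaction was called for 0 of 9 members by edgeR and DESeq2, at a background of 0.171%, with 2 at an unadjusted p under 0.05 (13.6% of all genes). Without P140 LAG-3-/- replicate 1, Tnfaip3 was called in it (2.02, adjusted p = 0.0857).

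Of the 51 pathway genes, 7 were called higher (11.9% of all genes) and 20 lower (15.5%) from P120 to P140 in LAG-3+/+ microglia. Their median was -0.83, against -0.22 for all genes tested and 0.80 for the members. All genes of 4000 bases and over had a median of -0.76 there, with 599 calls upward and 2078 downward. The part of transcript length in the pathway calls was not tested. Casp1, which matures IL-1β, rose from 53.0 ± 10.2 to 175 ± 19.2 CPM (n = 3 each), and Myd88, the adaptor of IL-1 and Toll-like receptors, from 51.7 ± 8.37 to 117 ± 22.4 CPM. Il10rb rose by 0.95 on the log2 scale. Il6st, the signalling chain shared by IL-6 and oncostatin M, fell from 163 ± 9.25 to 24.2 ± 9.18 CPM, Ikbkb, a kinase that releases NF-kB, from 126 ± 23.4 to 49.9 ± 10.7 CPM, and Stat3 from 209 ± 7.91 to 39.9 ± 29.6 CPM. In LAG-3-/- microglia 0 pathway genes were called between the stages (0.0% of all genes), with 2 at an unadjusted p under 0.05 (8.88%). At P120, 0 were called between the genotypes (0.0107% of all genes), with 0 at an unadjusted p under 0.05 (2.95%). At P140, 10 were higher and 0 lower in LAG-3-/- than in LAG-3+/+ microglia, led by Adam17, the sheddase that releases TNF (294 ± 72.6 against 88.7 ± 49.9 CPM), Il6st (153 ± 101 against 24.2 ± 9.18 CPM) and the kinase gene Chuk (74.7 ± 12.2 against 41.0 ± 6.49 CPM). In the whole table this comparison had 1347 calls upward and 561 downward (10.2% of all genes in both directions). Among genes of 4000 bases and over it had 1036 upward and 148 downward. The whole-table count was 0 with only the groups compared, and 95 to 4140 without 1 library. The interaction called 0 of the pathway genes (0.171% of all genes), with 11 at an unadjusted p under 0.05 (13.6% of all genes).

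In whole lumbar cord at P140, the members other than Il10 had lower group means than in the sorted SOD1G93A microglia. The 8 members tested had log2 fold changes below 0 in LAG-3-/- against LAG-3+/+ cord, with a median of -0.45 where all genes tested had 0.00. Of all 17702 genes tested, 8875 had a log2 fold change above 0. Members correlated at r = 0.0515 (Il1b and Osm) to 0.927 (Il1a and Il1rn) over the 6 libraries, so the 8 directions are not independent. By the rule, 0 of the 8 members were called (edgeR and DESeq2), at a background of 7.52%. An unadjusted p under 0.05 was reached by 1 member (47.7% of all genes), and 2 had genotypes that did not overlap (51.6%). The former was Tnfaip3, at 10.8, 7.91 and 9.83 CPM in LAG-3+/+ and 5.89, 3.99 and 4.75 CPM in LAG-3-/- cord. The groups did not overlap, and the log2 fold change of -0.97 ± 0.19 (adjusted p = 0.00278, edgeR) fell just inside the minimum of 1. Without LAG-3+/+ replicate 2 it was -1.09 and without LAG-3-/- replicate 1 -1.13, and both were called. With the length and GC correction it was -0.61 (adjusted p = 0.0474), and in this comparison the median of all genes of 4000 bases and over was -0.22, against 0.53 under 2000 bases.

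Il1b also did not overlap in cord, at 1.20, 1.08 and 1.17 CPM in LAG-3+/+ and 0.97, 0.28 and 0.65 CPM in LAG-3-/- libraries. These levels rest on 25 to 32 and 7 to 17 counts, and the log2 fold change was -0.90 ± 0.41 (adjusted p = 0.107, edgeR). Tnf was at 0.82, 0.30 and 0.86 CPM in LAG-3+/+ and 0.34, 0.24 and 0.45 CPM in LAG-3-/- cord, on 6 to 22 counts, and overlapped (-0.97 ± 0.50, adjusted p = 0.146, edgeR). Both were called with the length and GC correction, at -1.15 (adjusted p = 0.0636) and -1.37 (adjusted p = 0.0638). Without LAG-3-/- replicate 1, Il1b was called (-1.34, adjusted p = 0.0372), and without LAG-3+/+ replicate 2, Tnf was (-1.30, adjusted p = 0.0600). Nfkbia was at 22.9, 21.7 and 27.2 CPM in LAG-3+/+ and 21.4, 20.2 and 23.3 CPM in LAG-3-/- cord (-0.15 ± 0.12). Nfkbiz was at 9.43, 5.89 and 6.63 against 6.12, 4.89 and 5.95 CPM (-0.38 ± 0.21). The log2 fold changes of Il1a (-0.53 ± 0.33), Il1rn (-0.37 ± 0.31) and Osm (-0.08 ± 0.28) did not pass either (adjusted p = 0.233, 0.368 and 0.851, edgeR). Of the pathway list, 0 were called higher and 2 lower (7.52% of all genes in both directions). The 2 were Osmr, the oncostatin M receptor of astrocytes and endothelium (20.2 ± 5.04 against 57.4 ± 11.5 CPM, n = 3 each), and Il1r1 (7.77 ± 1.16 against 15.6 ± 3.84 CPM).

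Cell type markers differed in cord as well. Microglia markers summed to 830 to 1133 CPM in LAG-3-/- and 1152 to 1451 CPM in LAG-3+/+ cord, astrocyte markers to 6968 to 11415 and 12141 to 13962 CPM, endothelium markers to 90.7 to 101 and 117 to 124 CPM, and oligodendrocyte markers to 19586 to 27442 and 13644 to 14912 CPM, none of them overlapping. Immediate early genes summed to 192 to 252 and 283 to 294 CPM. The part of these differences in the lower values of the members, Osmr and Il1r1 was not tested.

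**Figure D4:**
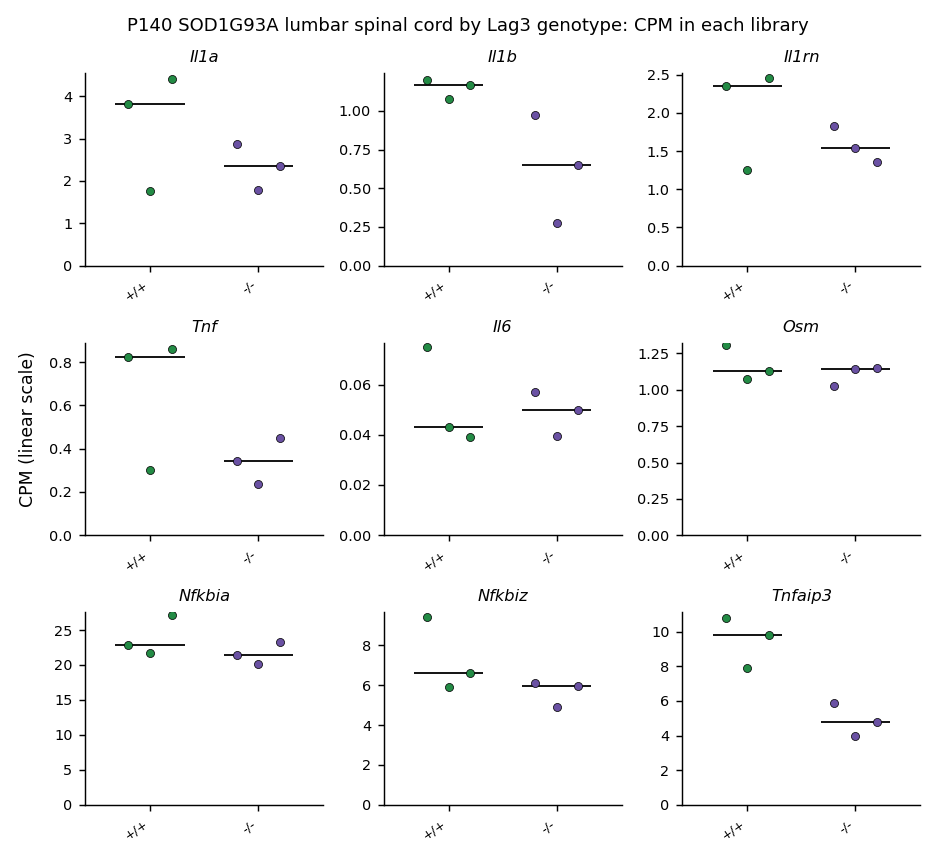
CPM on linear axes that start at 0 (vertical axis) of 9 genes in lumbar spinal cord of LAG-3+/+ and LAG-3-/- mice with the SOD1G93A transgene at P140 (n = 3 each), with 1 point per library and a line at the group median. Tnfaip3 and Il1b do not overlap between the genotypes, and the other genes do.

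Set side by side, calls of members were found against WT and between the stages in LAG-3+/+ microglia, and 0 in the other comparisons under edgeR. The comparisons share groups of libraries and are not independent of each other.

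**Figure D5:**
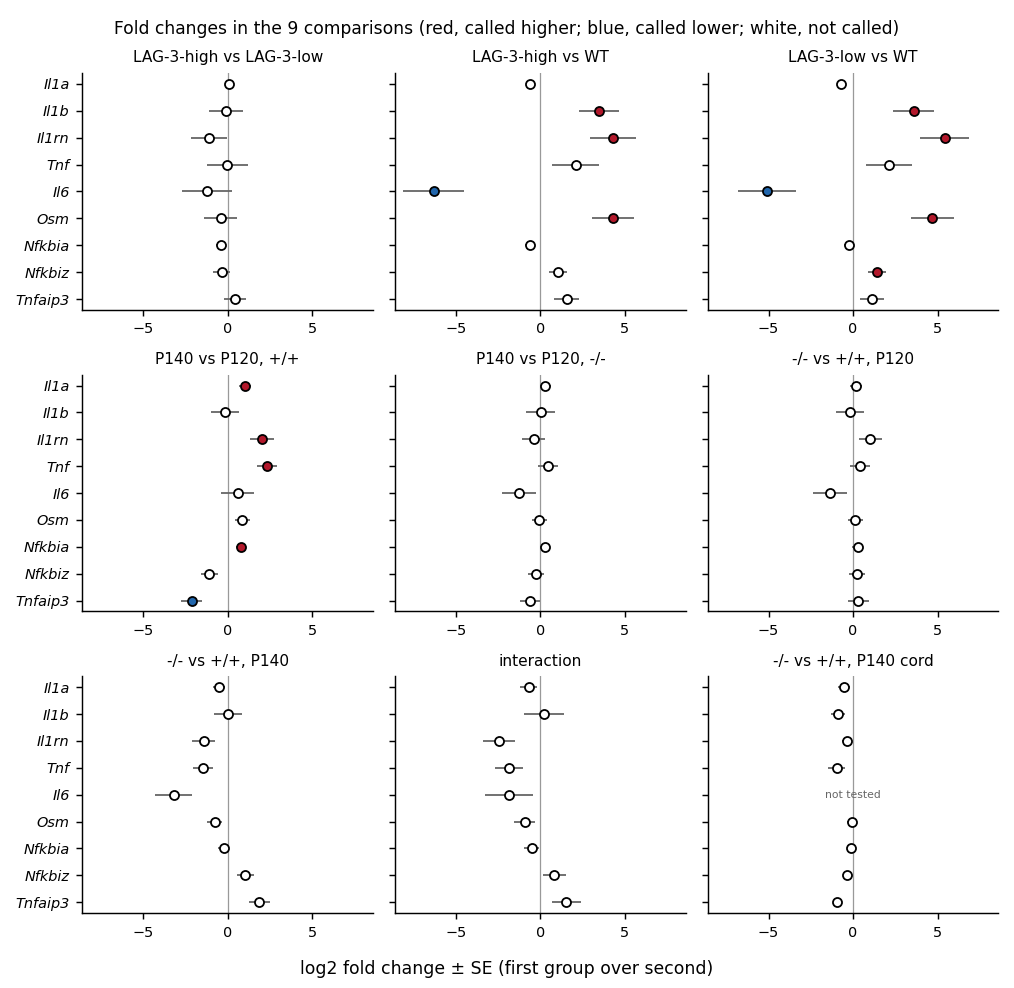
Log2 fold change with its SE (horizontal axis) of 9 genes in the 9 comparisons, with the first named group over the second; red points were called higher, blue points lower and white points not called. Calls appear against WT (Il1b, Il1rn and Osm higher and Il6 lower in both sorts, Nfkbiz higher in LAG-3-low) and between the stages in LAG-3+/+ microglia (Tnf, Il1rn, Il1a and Nfkbia higher, Tnfaip3 lower).

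The genes whose log2 CPM followed Tnf most closely were Ogdh, Suox and Smcr8 over the 14 sorted libraries (Pearson's r = 0.908, 0.907 and 0.904) and Ndufab1, Cpq and C1galt1c1 over the 12 stage libraries (r = 0.920, 0.911 and 0.903). For Il1b they were AI506816, Bcl6 and Bcl2l12 over the sorted libraries (r = 0.982, 0.979 and 0.978) and Gm26777, Mcat and 2900080M03Rik over the stage libraries (r = 0.866, 0.857 and 0.852). For Nfkbia they were Gm58683, Gm54052 and Gm60243 (r = 0.910, 0.892 and 0.872) and Pih1d1, Ino80e and Znhit2 (r = 0.915, 0.913 and 0.905). By rank (Spearman's rho), the Tnf correlations over the sorted libraries were well below these Pearson values. Those of Tnf over the stage libraries were similar to them or higher. The Il1b correlations over the sorted libraries were also lower by rank. WT replicates 3 and 4 held 0 counts of Tnf, and WT replicates 1 and 4 held 0 counts of Il1b. The part of such libraries in the Pearson values was not tested. The sorted and stage libraries fall into groups that differ in many genes. Such correlations therefore describe shared group differences as much as anything else, and no p is given.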

How the data were processed

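The authors trimmed reads with Trim Galore 0.6.7, quantified transcripts with Salmon 1.9.0 against GRCm39 and summed them per gene with tximport under R 4.2.1; microglia libraries were made with a SMART-seq kit that does not mark strand and cord libraries with a stranded kit. The deposited tables hold estimated counts, not normalized, which were rounded to whole numbers. Salmon splits reads among overlapping transcripts by estimate, and amplification of full-length cDNA can make counts depend on transcript length.

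Each table was fitted alone in edgeR 4.0.16 (R 4.3.3): filterByExpr (minimum count 10, total 15), TMM and the robust quasi-likelihood F-test over 16508, 18669 and 17702 genes, with all groups of a table in 1 model. Common dispersions were 0.691, 0.603 and 0.0247. The fits were tested on simulated data first. Libraries were grouped by their labels, and the labels do not say which libraries came from separate mice, so p-values measure only the spread between these libraries, which may be technical. Deviations of equally numbered libraries from their group means had correlations of at most 0.0674, so the numbers were not taken to pair them. Over 99% identical counts were found in 0 pairs of libraries.

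The members and lists were chosen with earlier results of these data known. The text names all 10 members, the called pathway genes with the 3 smallest p in each direction, and the 3 nearest genes of Tnf, Il1b and Nfkbia. Lists without a paragraph of their own were lymphocyte markers (at most 31.6 CPM in any microglia library), border macrophage and monocyte markers (at most 597 CPM), neuron, astrocyte and endothelium markers (at most 13.9, 61.3 and 111 CPM in microglia) and oligodendrocyte markers (at most 194 CPM in microglia). Names and coordinates are GENCODE vM39. Alternatives were DESeq2 1.42.0, RLE or no scaling factors, other filters and thresholds, a replicate block, listed sex, fits of only the groups compared, length and GC offsets (splines with 5 degrees of freedom), and each library left out.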

Additional observations from a re-analysis of the deposited data

Results flagged for a closer look

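In the sorted libraries, 27 groups of values (9 genes in 3 groups) were tested for a single library far from the others, and 6 held one. Chance gives about 1 in 20 for normally distributed values, a rate that need not hold for CPM near 0. Il1rn and Osm followed each other over the 14 libraries (r = 0.978), so their flags are not separate. For Tnf the flagged library was replicate 1 of each group, at 4.79 CPM in WT, 18.2 CPM in LAG-3-low and 12.7 CPM in LAG-3-high. The next highest libraries held 0.436, 4.41 and 4.94 CPM. The labels do not say whether the libraries numbered 1 shared a mouse, day or batch. For Il6 it was WT replicate 4 at 111 CPM, the library with the highest summed neutrophil markers (70631 CPM) and the fewest genes detected (17031). For Il1rn at 5.32 CPM and Osm at 5.23 CPM it was WT replicate 2, the library with the lowest total (9403475), where the other WT libraries held at most 0.102 CPM of each.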

How the results depend on the processing

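Of 207 counts of called members under an alternative, 175 stayed within 1.5 times the reported count and 32 moved, and of 1847 log2 fold changes 1691 kept direction and call, 64 lost the call, 35 gained it and 57 turned; the causes were not tested. Depth limited Il6, Il10 and, in cord, Tnf and Il1b. Members called moved to 1 (LAG-3-high against WT) and 2 (LAG-3-low against WT) when only the groups compared were fitted. LAG-3-low against WT gave 2 at an adjusted p under 0.05, 3 with no filter and 3 with listed sex. P140 against P120 in LAG-3+/+ gave 2 at an adjusted p under 0.05, and 3 each with a log2 change over 1, without TMM and with no filter. LAG-3-/- against LAG-3+/+ at P140 gave 3 with DESeq2, 1 with RLE and 1 without TMM, and in cord 1 with no minimum fold, 2 without TMM, 1 with no filter and 2 with length and GC offsets.

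Without 1 library, members called ranged from 0 to 0 (LAG-3-high against LAG-3-low, P140 against P120 in LAG-3-/-, and genotype at P120), 3 to 6 (LAG-3-high and LAG-3-low against WT), 1 to 6 (P140 against P120 in LAG-3+/+), 0 to 3 (genotype at P140), 0 to 1 (interaction) and 0 to 2 (cord). The count was 3 without LAG-3-low replicate 2, 3 or 5. In P140 against P120 it was 2 without P120 LAG-3+/+ replicate 1, 2 or 3, and 3 and 1 without P140 LAG-3+/+ replicates 2 and 3. Where a direction turned, log2 fold changes ranged as follows. LAG-3-high against LAG-3-low: Il1a -0.0106 to 0.26, Il1b -0.41 to 0.21, Tnf -0.58 to 1.09. LAG-3-low against WT: Nfkbia -0.45 to 0.0350. P140 against P120 in LAG-3+/+: Il1b -0.66 to 0.64. In LAG-3-/-: Il1a -0.18 to 0.57, Il1b -0.45 to 1.10, Osm -0.30 to 0.31, Nfkbiz -0.83 to 0.0859. Genotype at P120: Il1a -0.0156 to 0.33, Il1b -1.25 to 0.65, Tnf -0.36 to 0.84, Osm -0.23 to 0.61, Nfkbia -0.12 to 0.47, Nfkbiz -0.0597 to 0.38. Genotype at P140: Il1b -0.42 to 0.51. Interaction: Il1b -0.62 to 1.29. Cord: Osm -0.14 to 0.00432.

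Other turned directions were, for LAG-3-high against LAG-3-low, Il1a -0.30 without TMM, Il1b 0.21 with length and GC offsets, and Tnf 0.23 with them and 0.10 with listed sex. Nfkbiz against WT was -0.34 (LAG-3-high) and -0.0142 (LAG-3-low) with length and GC offsets. Il1b was 0.13 with listed sex in P140 against P120, LAG-3+/+. In LAG-3-/-, Il1a was -0.0131, Il1b -0.24 and Nfkbia -0.0275 without TMM, Il1b -0.000551 with no filter and Osm 0.0104 with listed sex. For genotype at P140, Il1b was -0.0538 (DESeq2), -0.0591 (RLE), -0.17 (listed sex) and -0.0444 (length and GC offsets), and Nfkbia 0.0495 without TMM.

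The replicate block pairs libraries by number, which the labels neither state nor exclude. With it, members called were 0, 5, 4 and 5 (LAG-3-high against LAG-3-low, LAG-3-high and LAG-3-low against WT, and P140 against P120 in LAG-3+/+) and 0 in the other 5. Under the block Tnf was called in LAG-3-high against WT (4.10, adjusted p = 0.0726) and Nfkbiz in LAG-3-low was not (1.64, adjusted p = 0.142). Tnf between the sorts was 0.45 with the block, 0.32 with only those groups and 0.74 with length and GC offsets added, and Il1b was 0.30 with the block and offsets.

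Genes called in the whole table, against 576 for LAG-3-high against LAG-3-low, were 1131 with DESeq2, 1450 with only these groups and 1333 with the block added. They were 2663 (4464 reported) for LAG-3-high and 1721 (3614 reported) for LAG-3-low against WT with only the groups compared, and for the latter 2257 with the block and 5890 with length and GC offsets. DESeq2 called 477 between the stages in LAG-3-/- (0 reported), 161 for genotype at P120 (2 reported), 4391 at P140 (1908 reported) and 1327 for the interaction (32 reported). At P140 the count was 642 at an adjusted p under 0.05, 814 with the block and 0 with only the groups compared, and from 95 to 4140 without 1 library. The interaction had 14 with RLE, 179 with no filter, 9 with length and GC offsets and 0 with the block or listed sex. Cord had 8330 with no minimum fold and 865 with offsets (1331 reported).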
